A study of Mus musculus with 2 samples.

Results

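The metallothionein genes *Mt1* and *Mt2* are 2 of the 27998 genes counted in single cells of the ocular area of mouse embryos at the 26-somite stage (E9.25). They were picked on the low *Mt1* level of the *Mab21l1*-null (KO) library in ectoderm covering the eye, so their KO and wild-type (WT) values in ectoderm are a description. Each library came from 1 embryo, whose pair of optic areas was cut out, treated with trypsin and counted with the 10x Chromium 3′ system. The WT embryo was of the strain C57BL/6J, and the KO embryo was *Mab21l1*-null on the same strain. Since each genotype is 1 embryo, embryo and genotype cannot be told apart, KO and WT values have no replicates, and no test was made.

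Metallothioneins are small, cysteine-rich proteins of the cytoplasm and nucleus that bind zinc and copper, buffer free metal and take up reactive oxygen species. *Mt1* and *Mt2* are neighbouring genes with similar products and are induced in many tissues by zinc and cadmium through the metal-sensing transcription factor MTF-1, and also by glucocorticoids and stress. MTF-1 binds metal response elements, short GC-rich motifs near the start of its target genes. *Mt3* and *Mt4* are the relatives expressed mainly in the nervous system and in stratified epithelia.

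On GRCm38, *Mt2* (ENSMUSG00000031762) spans chromosome 8 bases 94172664 to 94173568, and *Mt1* (ENSMUSG00000031765) spans bases 94179082 to 94180327. Both are read from the plus strand, and 5513 bases separate the gene models. Each has 3 exons, all holding coding sequence, and 183 coding bases. The longest stretch shared by their transcripts, of 549 bases for *Mt1* and 511 bases for *Mt2*, is 20 bases. The antisense gene *Gm45774* overlaps *Mt2* on the minus strand and is not among the counted genes, so reads from it could not be told from *Mt2* reads unless counting used the strand.

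The promoter windows below run from 250 bases before to 50 bases after the RefSeq start on GRCm38.p6, plus strand. They are shown because both hold matches to the metal response element. Both genes were also high in red cells and in surface ectoderm, though not in all the same classes, as described below. Whether the matches go with these levels was not tested. Capitals mark matches to its core, TGCACNC or TGCGCNC, on either strand, and a match on the minus strand reads as its reverse complement. The *Mt2* window is chr8:94172368-94172667 and the *Mt1* window is chr8:94178839-94179138.
Mt2 promoter: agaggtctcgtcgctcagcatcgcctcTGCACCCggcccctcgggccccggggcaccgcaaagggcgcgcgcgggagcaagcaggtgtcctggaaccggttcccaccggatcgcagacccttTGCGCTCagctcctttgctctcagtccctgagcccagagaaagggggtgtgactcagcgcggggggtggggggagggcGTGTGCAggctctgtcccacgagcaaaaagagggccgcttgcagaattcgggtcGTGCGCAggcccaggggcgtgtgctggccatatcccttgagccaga
Mt1 promoter: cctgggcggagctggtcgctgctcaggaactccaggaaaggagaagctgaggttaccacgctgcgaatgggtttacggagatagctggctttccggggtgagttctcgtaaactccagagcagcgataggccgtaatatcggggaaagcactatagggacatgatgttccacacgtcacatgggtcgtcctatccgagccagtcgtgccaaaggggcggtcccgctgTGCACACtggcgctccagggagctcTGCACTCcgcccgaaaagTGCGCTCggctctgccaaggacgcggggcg

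The *Mt2* window held 4 matches, beginning at -223, -128, -50 and 4 from the window's start site, the last 2 of them on the minus strand. The *Mt1* window held 3 matches, beginning at -23, 2 and 20, all on the plus strand. Of 32851 promoter windows of the same length, 25.7% held at least 1 match, 1.97% at least 3 and 0.517% at least 4. A match is a sequence feature, and binding was not measured here. Other annotated *Mt1* transcripts start downstream of the window's start site, at 94179211 and 94179241, and another *Mt2* transcript starts at 94172860, so that the windows do not reach those starts.

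*Mab21l1*, the gene disrupted in the KO embryo, was counted in both libraries, at 20.3 UMIs per 1000000 (CPM) in the library labelled WT and 32.3 CPM in that labelled KO over all barcodes. In LP-like cells it stood at 133.2 CPM [106.8, 164.1] in WT and 64.1 CPM [40.1, 97.0] in KO, and in optic vesicle-like cells at 32.6 CPM [29.8, 35.6] and 64.0 CPM [60.5, 67.6]. Its RNA was thus lower under the KO label in LP-like cells and higher in optic vesicle-like cells and in the total. Which part of the gene the allele removes is not given in the sources used here, so 3′ counts do not check the labels, and every direction given depends on them. Of 4084 cells kept (1680 and 2404), 3549 fell into 10 classes by summed marker genes of 5 or more UMIs per 10000 UMIs of the cell, and a class is called "-like" for its markers alone. A further 103 cells were left out for passing the gates of more than 1 class and 432 passed none, and 15 barcode sequences occurred in both libraries. Cells passing the optic vesicle gate with that of pigment epithelium or of forebrain were kept, as pigment epithelium-like or forebrain-like. Ectoderm cells were divided at 3 UMIs of *Pax6* and *Six3* per 10000 into lens placode (LP)-like cells (31 WT and 17 KO) and surface ectoderm (SE)-like cells (26 and 24), with 9 and 10 cells between 2 and 4. The 2 dividing genes themselves differed between the libraries, with 21 of 57 WT but 6 of 41 KO ectoderm cells at 6 or more UMIs per 10000. A fixed line may therefore part unlike cells in WT and KO. What this adds to values given apart for LP-like and SE-like cells was not tested. In these ectoderm cells the lens gene *Foxe3* and the epidermal keratin *Krt5* had 0 UMIs, and the LP-like label rests on the division by *Pax6* and *Six3*. Both genes were also listed as optic vesicle markers and were dropped from that gate as shared. Among markers of other classes, those of optic vesicle were highest in KO LP-like cells, at a median of 1.99 UMIs per 10000. In WT LP-like cells those of mesenchyme were highest, at 0.888. The part of optic vesicle RNA or cells in this class was not tested.

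Of the 4 metallothionein genes, *Mt1* and *Mt2* carried nearly all of the family's RNA. Over all barcodes *Mt1* stood at 202.9 CPM in the library labelled WT and 216.1 CPM in that labelled KO, and *Mt2* stood at 121.0 and 137.0 CPM. *Mt3* reached 4.47 and 3.84 CPM, and its highest level was 30.6 CPM [21.0, 43.3] in the WT forebrain-like cells. In LP-like cells *Mt3* had 0 UMIs, which allows up to 4.54 CPM in WT and 8.73 CPM in KO. *Mt4* had 0 UMIs in both libraries, which allows up to 0.0687 and 0.0564 CPM. Brackets give exact 95% intervals, Poisson for levels and conditional binomial for ratios of 2 libraries, and limits at 0 are 3 UMIs over the UMIs of that group, all of which cover counting error only.

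Erythrocyte-like cells, chosen by red cell markers, *Alas2*, *Klf1* and *Gata1* among them, held by far the highest metallothionein level. *Mt1* stood at 5008 CPM [4890, 5128] in 38 cells of the library labelled WT and 4954 CPM [4854, 5055] in 52 cells of the library labelled KO. *Mt2* stood at 3342 CPM [3246, 3440] and 3498 CPM [3414, 3583]. These cells were 2.26% and 2.16% of the cells but carried 80.4% and 83.9% of all *Mt1* UMIs and 90.4% and 93.3% of all *Mt2* UMIs. *Mt2* was also among the 10 genes with the highest fold of this class over all other cells, beside globin genes and *Alas2*.

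Every erythrocyte-like cell held UMIs of both genes. Per 10000 UMIs of a cell, *Mt1* ran from 17.9 through a median of 51.3 to 89.7 in the library labelled WT, and from 6.75 through 46.2 to 127.9 in the library labelled KO. *Mt2* ran from 11.4 through 30.8 to 65.2 and from 5.33 through 34.1 to 74.0. The ranges of the 2 libraries overlapped, and the WT range of each gene lay inside the KO range. Within cells the 2 genes went together, with a Spearman rho of 0.81 over 38 WT cells and 0.75 over 52 KO cells, which share the library and the depth of each cell. The embryonic globin *Hbb-y* did not follow them, with a rho to *Mt1* of -0.14 and 0.10. After every cell was thinned to 10000 UMIs the variance of *Mt1* over cells was 6.30 and 8.78 times its mean, where counting alone gives a ratio near 1.

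**Figure D1:**
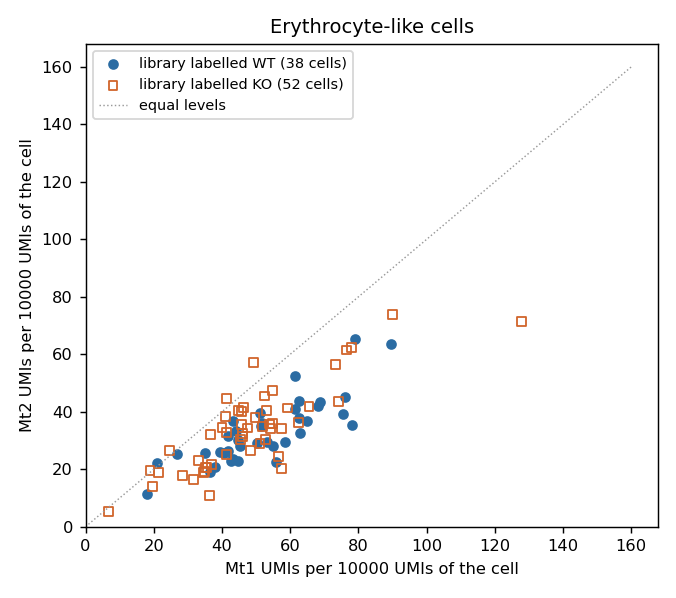
Each point is 1 erythrocyte-like cell, with *Mt1* UMIs per 10000 UMIs of the cell on the x axis and *Mt2* on the y axis, filled circles for 38 WT cells and open squares for 52 KO cells. Most cells lie under the dotted line of equal levels, and the 2 libraries overlap.

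Outside the red cell lineage the classes were ordered by *Mt1* from macrophage-like and SE-like cells at the top to mesenchyme-like cells at the bottom. Macrophage-like cells, only 17 and 8 in number, stood at 448.0 CPM [396.6, 504.2] and 359.9 CPM [286.3, 446.8] of *Mt1*. SE-like cells stood at 430.4 CPM [373.2, 493.8] and 233.6 CPM [187.1, 288.2]. In each library the intervals of these 2 neighbours overlapped. LP-like cells followed in the library labelled WT at 149.8 CPM [121.8, 182.4], with an interval that overlapped that of neural crest-like cells, whereas in the library labelled KO they stood at 55.3 CPM [33.3, 86.4], next to endothelium-like and forebrain-like cells.

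Neural crest-like cells held 101.4 and 102.8 CPM in WT and KO, endothelium-like cells 71.3 and 61.5 CPM, and forebrain-like cells 48.8 CPM in each library. Optic vesicle-like cells, the precursors of the retina, held 31.2 CPM [28.4, 34.1] and 35.1 CPM [32.5, 37.8]. The lowest levels were those of pigment epithelium-like cells, at 15.2 and 21.5 CPM, and of mesenchyme-like cells, at 12.3 and 15.7 CPM. The SE-like level was 35.0 times the mesenchyme-like level in the library labelled WT and 14.9 times in that labelled KO.

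*Mt2* was restricted more closely to red cells and ectoderm. After erythrocyte-like cells its highest level was in SE-like cells, at 496.1 CPM [434.6, 563.9] in the library labelled WT and 228.2 CPM [182.3, 282.2] in that labelled KO. LP-like cells came next, at 112.0 CPM [87.9, 140.6] and 52.4 CPM [31.1, 82.8]. Macrophage-like cells, whose *Mt1* interval overlapped that of SE-like cells, held 61.9 CPM of *Mt2*, from 38 UMIs, in WT and 17.6 CPM, from 4 UMIs, in KO. In the WT macrophage-like cells 3 cells carried 94.7% of the UMIs, and 12 of 17 cells had none. All other classes held between 0 and 8.08 CPM. In WT neural crest-like cells *Mt2* had 0 UMIs, which allows up to 6.76 CPM, while *Mt1* had 45 UMIs in the same cells. In the order of *Mt2* levels, erythrocyte-like and SE-like cells had intervals clear of the next class in each library, LP-like and macrophage-like cells in WT alone, and no other class did.

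**Figure D2:**
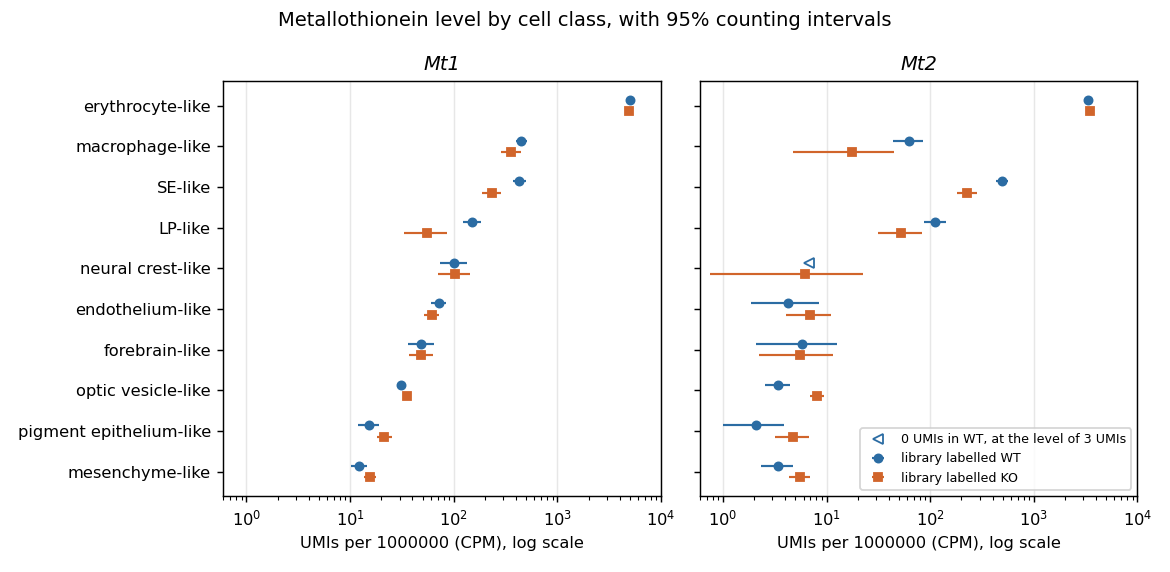
Level of *Mt1* (left) and *Mt2* (right) in 10 cell classes, as UMIs per 1000000 on a log axis, circles for the library labelled WT and squares for KO, with bars for the 95% counting interval and an open triangle where no UMI was counted. Erythrocyte-like cells stand between 3342 and 5008 CPM for both genes, and *Mt2* lies at 8.08 CPM or less outside erythrocyte-like, macrophage-like and ectoderm cells.

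The 2 genes therefore differed in proportion from class to class. In SE-like cells *Mt2* made up 53.5% [48.7, 58.3] of the UMIs of both genes in the library labelled WT and 49.4% [41.7, 57.1] in that labelled KO. In LP-like cells it made up 42.8% [35.3, 50.5] and 48.6% [31.9, 65.6]. Erythrocyte-like cells stood at 40.0% [39.1, 40.9] and 41.4% [40.6, 42.2], clear of the SE-like share in WT but not in KO, and within the LP-like intervals. In endothelium-like cells the share was only 5.67% [2.48, 10.9] and 10.1% [6.01, 15.7], and in optic vesicle-like cells 9.77% [7.39, 12.6] and 18.7% [16.1, 21.5]. The intervals of these shares are exact binomial, and the ectoderm shares are clear of those of optic vesicle-like and endothelium-like cells in each library.

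The embryonic globin RNA found outside red cells gives a scale for low metallothionein levels. *Hbb-y*, at 132046 and 147841 CPM in erythrocyte-like cells, was also counted in every other class, at 87.8 to 139.7 CPM in the library labelled WT and 210.7 to 400.6 CPM in the library labelled KO. At the erythrocyte-like ratio to *Hbb-y*, these levels go with 2.22 to 3.54 CPM of *Mt2* in the other WT classes and 4.98 to 9.48 CPM in the KO classes. *Mt2* in optic vesicle-like cells (3.38 and 8.08 CPM), mesenchyme-like cells (3.38 and 5.58 CPM) and pigment epithelium-like cells (2.11 and 4.77 CPM) lay near that scale. For *Mt1* the same ratio gives 3.33 to 5.30 CPM in the library labelled WT and 7.06 to 13.4 CPM in the library labelled KO, under the level measured in every class.

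In ectoderm the amounts on this scale were a minor share of the counts. The scale takes RNA outside red cells to keep the erythrocyte-like ratio to *Hbb-y*, and leaves out RNA from other classes. Neither was measured, and the part of RNA from other cells in the ectoderm counts was not tested. They came to 2.22% of *Mt1* UMIs in WT LP-like cells and 13.0% in KO LP-like cells, and to 0.934% and 3.31% in SE-like cells. For *Mt2* they came to 1.98% and 9.73% in LP-like cells and 0.541% and 2.39% in SE-like cells. Over ectoderm cells *Mt1* had a Spearman rho to *Hbb-y* of 0.0059 over 57 WT cells and 0.12 over 41 KO cells. Only 1.90 to 2.88 *Mt1* UMIs per ectoderm class and library lie on this scale. A rho over cells could not show so few, and nothing is read from it.

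**Figure D3:**
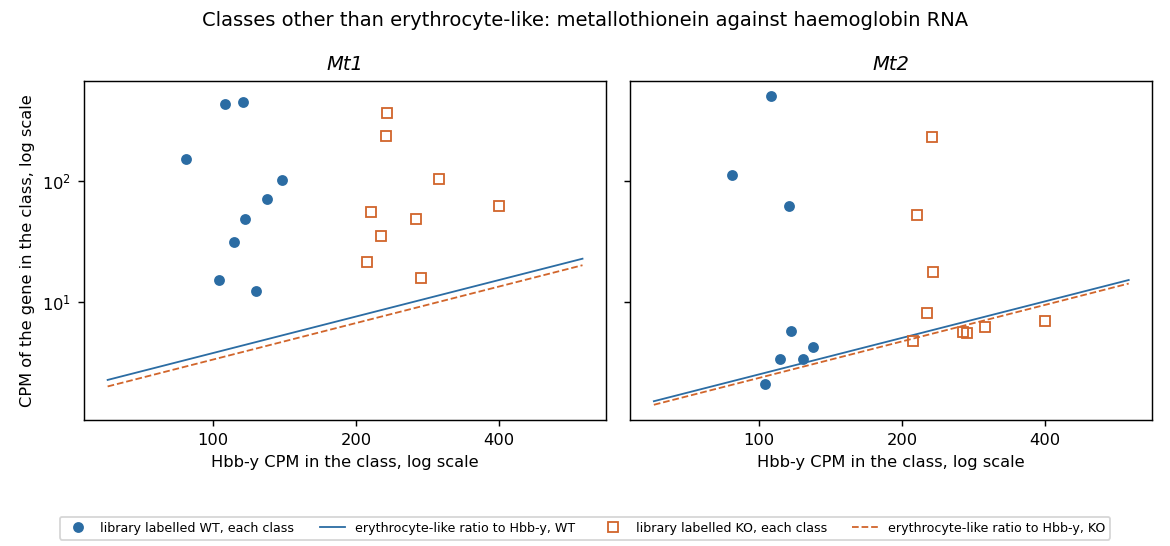
Each point is 1 class other than erythrocyte-like in 1 library, with the *Hbb-y* level on the x axis and *Mt1* (left) or *Mt2* (right) on the y axis, all in CPM on log axes, filled circles for WT and open squares for KO. The lines give the ratio to *Hbb-y* found in erythrocyte-like cells of each library. All *Mt1* points lie above the lines, while *Mt2* lies near them where its level is 8.08 CPM or less.

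Within ectoderm both genes were higher outside the placode. The level in SE-like cells was 2.87 times [2.25, 3.69] that in LP-like cells for *Mt1* and 4.43 times [3.40, 5.83] for *Mt2* in the library labelled WT. In the library labelled KO it was 4.22 times [2.55, 7.35] and 4.36 times [2.60, 7.70]. After thinning to 10000 UMIs, an *Mt1* UMI was found in 87.5% of 24 WT and 68.2% of 22 KO SE-like cells, in 44.8% of 29 WT and 43.8% of 16 KO LP-like cells, and in 10.1% and 12.7% of mesenchyme-like cells. Thinning left out, as too shallow, 2 WT and 1 KO LP-like cells, 2 SE-like cells of each library, and 53 WT and 65 KO mesenchyme-like cells. Without thinning these shares were 92.3% and 79.2% in SE-like cells, 58.1% and 58.8% in LP-like cells, and 17.0% and 21.2% in mesenchyme-like cells.

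The same ectoderm cells were also described in finer bins of *Pax6* and *Six3*, the genes that divide SE-like from LP-like cells. In the library labelled WT, the 15 ectoderm cells with under 1 UMI of *Pax6* and *Six3* per 10000 held 468.9 CPM [386.8, 563.3] of *Mt1*, and all 15 had a UMI of each gene. The 11 cells from 1 to under 3 held 389.4 CPM [312.8, 479.2], the 10 cells from 3 to under 6 held 97.5 CPM [63.1, 144.0] and the 21 cells at 6 or more held 183.0 CPM [143.7, 229.7]. In the library labelled KO the same bins, with 9, 15, 11 and 6 cells, held 265.6, 217.6, 38.3 and 92.4 CPM. Above the division the level was higher in the last bin than in the third in both libraries, with overlapping intervals in both, and all of these bins but 1 hold fewer than 20 cells. For *Mt1* the Spearman rho to *Pax6* and *Six3* was -0.50 over 57 WT cells and -0.38 over 41 KO cells, and that to the surface ectoderm markers was 0.50 and 0.38. For *Mt2* the rho to *Pax6* and *Six3* was -0.61 over 57 WT cells and -0.43 over 41 KO cells, and that to the surface ectoderm markers, *Trp63*, *Wnt6* and *Msx2* among them, was 0.57 and 0.59, in cells that share a library and differ in depth.

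**Figure D4:**
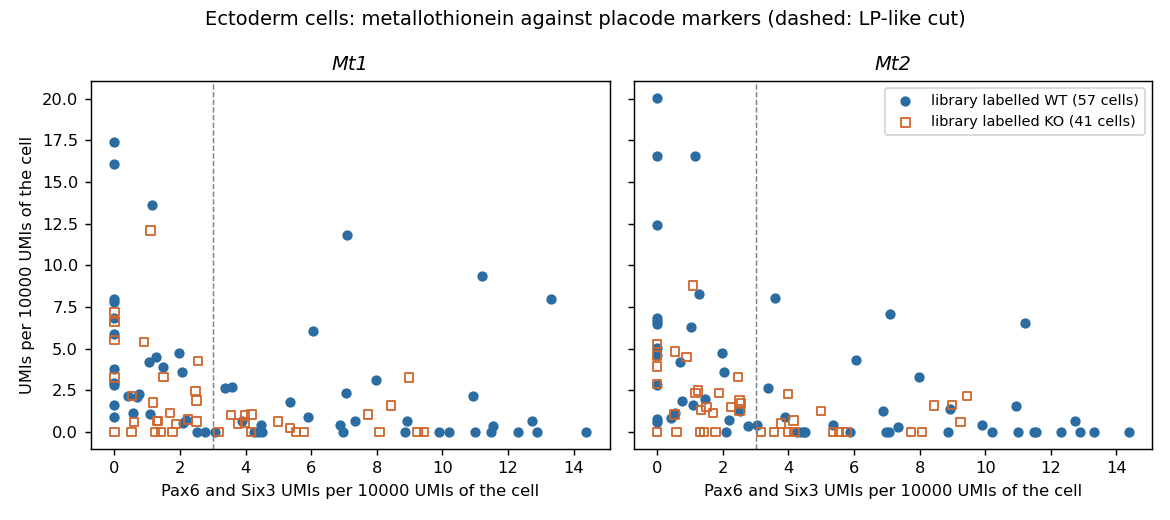
Each point is 1 ectoderm cell, with UMIs of *Pax6* and *Six3* per 10000 on the x axis and *Mt1* (left) or *Mt2* (right) per 10000 on the y axis, filled circles for 57 WT cells and open squares for 41 KO cells. Cells with high metallothionein lie mostly left of the dashed line at 3, which divides SE-like from LP-like cells, with a few WT cells of high *Mt1* to its right.

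High counts were concentrated in few cells. In WT SE-like cells 1 cell held 47 UMIs of *Mt1* and 57 of *Mt2*, and the top 3 cells held 42.4% of all *Mt1* UMIs of the class. In KO SE-like cells the highest count was 22 UMIs of *Mt1* and the top 3 cells held 46.0%. Per 10000 UMIs of a cell, *Mt1* in SE-like cells had a median of 3.28 and a maximum of 17.4 in the library labelled WT, and of 1.45 and 12.1 in the library labelled KO. The 2 libraries overlapped over most of this range. In LP-like cells the medians were 0.431 and 0.504, the highest cells stood at 11.8 and 3.27, and 13 of 31 and 7 of 17 cells had no *Mt1* UMI. The median LP-like cell held 1 *Mt1* UMI in WT and 2 in KO, and the highest cells come from groups of 31 and 17 cells. Nothing is read from either. Both genes went together here too, with a rho of 0.81 over WT and 0.64 over KO ectoderm cells.

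The comparison of KO with WT asks how RNA levels in the ectoderm differ without *Mab21l1*, and its *Mt1* value chose the genes, so nothing is read from the values in ectoderm. In LP-like cells *Mt1* had 99 UMIs in the library labelled WT and 19 under the KO label, a KO over WT ratio of levels of 0.369 [0.213, 0.608]. *Mt2* had 74 and 18 UMIs, a ratio of 0.468 [0.263, 0.792]. In SE-like cells the ratio was 0.543 [0.417, 0.701] for *Mt1*, from 203 and 87 UMIs, and 0.460 [0.355, 0.592] for *Mt2*, from 234 and 85 UMIs. Over LP-like and SE-like cells together it was 0.555 [0.441, 0.695] for *Mt1* and 0.529 [0.419, 0.663] for *Mt2*. These pooled ratios lie above those of both classes because they also carry the mix of classes. SE-like cells, with the higher levels, held 372401 UMIs against 343457 in LP-like cells in KO, but 471663 against 660837 in WT. Without the cell of highest metallothionein count in each group, the ratios were 0.333 and 0.514 for *Mt1* and 0.516 and 0.481 for *Mt2* in LP-like and SE-like cells.

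The groups also differed in depth and in the share of mitochondrial RNA. What part these had in the ratios, or in the higher levels of SE-like cells, was not tested. The median depth was 19940 and 18566 UMIs in WT and KO LP-like cells and 17270.5 and 15605.5 UMIs in SE-like cells. The median mitochondrial share was 2.52% and 2.76% in LP-like and 2.95% and 2.66% in SE-like cells. Over 57 WT and 41 KO ectoderm cells, the Spearman rho to UMIs per cell was -0.24 and -0.33 for *Mt1* and -0.18 and -0.29 for *Mt2*. To the mitochondrial share it was 0.23 and 0.15 for *Mt1* and 0.21 and 0.29 for *Mt2*. The ratio of *Mt1* in LP-like cells depended on where they were divided from SE-like cells. With the line at 1.5 in place of 3 UMIs of *Pax6* and *Six3*, which gives 37 WT and 26 KO LP-like cells, it was 0.611.

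Among all genes with at least 100 UMIs in a class over both libraries, 7.06% of 1459 were lower by 1.5-fold or more in the library labelled KO in LP-like cells and 4.52% were higher. In SE-like cells these shares were 2.96% of 1249 genes and 2.08%. *Mt1* was among the lower genes in both classes and *Mt2* in SE-like cells, while *Mt2* had too few UMIs in LP-like cells to be counted there. In LP-like cells *Mt1* reached 100 UMIs mainly through WT, with 99 UMIs there and 19 in KO. The WT cells of this class held 660837 UMIs and the KO cells 343457, so the summed filter admits genes high in WT more readily. What this adds to the shares was not tested, and nothing is read from the place of *Mt1* among the lower genes. The median log2 ratio of all genes counted was 0.01 for LP-like cells and 0.03 for SE-like cells.

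Outside ectoderm the KO over WT ratio of *Mt1* had an interval that held 1 in 6 of 8 classes. In forebrain-like cells, with 48.8 CPM in each library, the interval ran from 0.678 to 1.48. The ratio was 0.989 [0.959, 1.02] in erythrocyte-like cells, 1.12 [0.999, 1.27] in optic vesicle-like cells, 1.01 [0.627, 1.62] in neural crest-like cells, 0.863 [0.679, 1.10] in endothelium-like cells and 0.803 [0.620, 1.03] in macrophage-like cells. It was above 1 beyond counting error in pigment epithelium-like cells, at 1.41 [1.05, 1.91], and in mesenchyme-like cells, at 1.27 [1.02, 1.60]. With the amount at the erythrocyte-like ratio to *Hbb-y* taken off, the mesenchyme-like ratio was 0.854.

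*Mt2* was higher in the library labelled KO in several classes where its level was low. The ratio was 2.39 [1.74, 3.34] in optic vesicle-like cells, from 52 and 157 UMIs, 1.65 [1.09, 2.56] in mesenchyme-like cells, from 34 and 74 UMIs, and 2.26 [1.08, 5.18] in pigment epithelium-like cells, from 10 and 30 UMIs. In erythrocyte-like cells it was 1.05 [1.01, 1.09]. *Mt2* passed 1.5-fold with enough UMIs in optic vesicle-like and mesenchyme-like cells, whereas *Mt1* did not. Genes higher by 1.5-fold or more in the library labelled KO were 0.757% of 10177 genes in optic vesicle-like cells and 1.04% of 9451 genes in mesenchyme-like cells. *Hbb-y* was likewise 2.01 to 3.09 times as high in the library labelled KO in every class outside erythrocyte-like cells. Per 100 *Hbb-y* UMIs, *Mt2* had 3.05 UMIs in WT and 3.58 in KO optic vesicle-like cells, against 2.53 and 2.37 in erythrocyte-like cells, and 2.74 and 2.04 in mesenchyme-like cells. With the amount at the erythrocyte-like ratio to *Hbb-y* taken off, the *Mt2* ratio in optic vesicle-like cells was 4.79, and in mesenchyme-like and pigment epithelium-like cells no ratio was left. The 4.79 rests on only 0.573 CPM left in WT and 2.74 CPM left in KO, with 83.0% and 66.0% of the UMIs taken off. It has no interval and is not read as a larger difference. In macrophage-like cells the *Mt2* ratio was 0.284 [0.0735, 0.788], and it was 1.11 without the highest cell of each library. In neural crest-like cells *Mt2* had 0 and 2 UMIs, too few for a ratio.

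**Figure D5:**
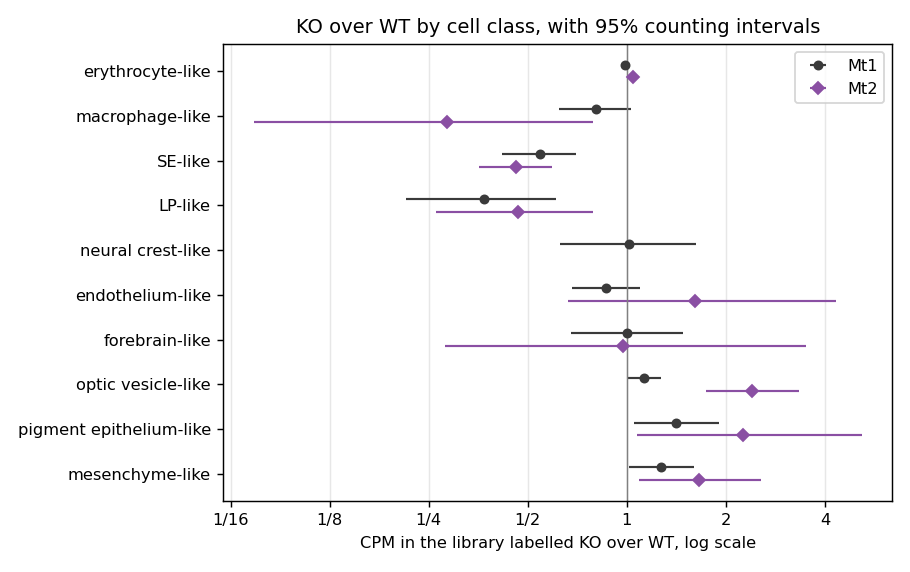
Ratio of the level in the library labelled KO to that in the library labelled WT for *Mt1* (circles) and *Mt2* (diamonds) in each class, on a log axis with bars for the 95% counting interval and a line at 1. Both genes lie under 1 in LP-like and SE-like cells and close to 1 in erythrocyte-like cells. *Mt2* in neural crest-like cells, with 0 and 2 UMIs, is not drawn.

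The genes around *Mt1* and *Mt2* in metal handling were mostly sparse in ectoderm. None of the metal and hormone regulators (5 genes, *Mtf1* among them), zinc exporters (7), zinc importers (11) or glucocorticoid response genes (6) reached 100 UMIs in LP-like or SE-like cells. Summed over the list, zinc exporters stood at 75.7 CPM in WT and 84.4 CPM in KO LP-like cells, a ratio of 1.12 [0.681, 1.80], and at 84.8 and 77.9 CPM in SE-like cells, a ratio of 0.918 [0.549, 1.52]. Zinc importers had a ratio of 0.822 [0.620, 1.08] in LP-like cells. In SE-like cells they stood at 222.6 and 222.9 CPM, with an interval from 0.742 to 1.35. The LP-like sum joins importers on both sides of 1, given here outside the rule for named genes. Those with UMIs in both libraries ran from *Slc39a7* at 0.468 [0.199, 0.987] and *Slc39a10* at 0.582 [0.348, 0.939] to *Slc39a11* at 2.24 [0.646, 8.09]. Glucocorticoid response genes had ratios of 1.03 [0.699, 1.51] and 1.12 [0.704, 1.77]. The regulators had ratios of 1.02 [0.696, 1.47] and 0.972 [0.673, 1.40]. *Mtf1*, named for its role and outside the rule for named genes, had 12 and 6 UMIs in LP-like and 12 and 8 in SE-like cells.

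Of the 10 other lists, with 80 genes, 12 genes could be counted in LP-like cells, where 3 were lower in the library labelled KO by 1.5-fold or more and 0 higher, where 7.06% and 4.52% of all genes were. The 3 were *Prdx1*, a peroxidase of hydrogen peroxide, at 815.6 and 541.6 CPM (ratio 0.664), the glucose transporter *Slc2a1* at 164.9 and 84.4 CPM (0.512), and *Ldha*, a lactate dehydrogenase subunit, at 1023 and 617.3 CPM (0.603). The summed filter, which admits genes high in WT more readily in LP-like cells, applies to these counts as well. In SE-like cells 9 genes could be counted and 0 passed the fold in either direction, with *Prdx1* at a ratio of 1.18 and *Ldha* at 1.01. The hypoxia list, which holds *Slc2a1* and *Ldha*, had a median log2 ratio of -0.85 over 2 counted genes in LP-like cells and a summed ratio of 0.617 [0.539, 0.703], with 0.998 [0.847, 1.17] in SE-like cells. The difference between the classes was not tested.

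The other counted metal and redox genes did not pass 1.5-fold in ectoderm. The copper chaperone *Atox1* had a ratio of 1.08 in LP-like cells and 1.07 in SE-like cells, and *Commd1*, which takes part in copper export, 0.983 and 1.17. *Cox17*, the copper chaperone of cytochrome oxidase, was within ectoderm counted in LP-like cells only, at 0.779. In optic vesicle-like and mesenchyme-like cells, the classes with most cells, its ratio was 0.732 and 0.778. The ferritin subunits *Fth1* and *Ftl1* had ratios of 0.867 and 0.916 in LP-like cells and 1.11 and 1.06 in SE-like cells. Thioredoxin (*Txn1*) stood at 1.19 and 1.21, and its reductase *Txnrd1* at 1.05 and 0.983. Median log2 ratios over the counted genes of the copper, iron and redox lists were -0.02, -0.17 and 0.08 in LP-like cells and 0.16, 0.12 and 0.24 in SE-like cells.

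Genes that respond to cell handling were compared as lists too. The 11 dissociation and immediate early genes, 8 of them with a UMI in LP-like cells, summed to 161.9 CPM in WT and 142.7 CPM in KO LP-like cells, a ratio of 0.881 [0.615, 1.25], and to 101.8 and 126.2 CPM in SE-like cells, a ratio of 1.24 [0.812, 1.89]. *Ier2*, the only one counted, had a ratio of 0.920 in LP-like cells. The heat shock list had summed ratios of 0.773 [0.680, 0.878] and 0.821 [0.722, 0.934], nearly all of it *Hspa8*, a chaperone expressed without stress, whose own ratios were 0.755 and 0.782. What part cell handling had in the metallothionein levels was not tested.

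Over the 20 levels of 10 classes in 2 libraries, the genes most like *Mt1* other than *Mt2* were *Smim1*, a red cell membrane protein (Pearson r = 0.857), *Ehd1* (0.855), the ferritin heavy chain *Fth1* (0.852), the heme-binding protein *Hebp1* (0.839) and *Acp5* (0.831), from log2(CPM + 1) of 5374 genes. Those most like *Mt2* other than *Mt1* were *Smim1* (0.884), *Cited4* (0.869), *Frrs1* (0.868), *Nt5c3* (0.854) and *Ehd1* (0.852). *Mt1* and *Mt2* had an r of 0.863 with each other. These levels share 2 libraries and are led by the erythrocyte-like class, where *Smim1* stood at 624.8 CPM and *Fth1* at 8408 CPM in the library labelled WT. Without that class, a choice made after the values were seen, the genes most like *Mt1* over 18 levels were *Prps2* (0.898), *Atp6v0e* (0.818), *Klk8* (0.795), *H2afj* (0.779) and *Atg3* (0.775). Those most like *Mt2* were then *Slc2a3* (0.874), *Cdh1* (0.865), *Fermt1* (0.857), *Wnt6* (0.856) and *Krt7* (0.852), of which *Cdh1* is a marker used to choose ectoderm cells. In WT macrophage-like cells *Atp6v0e* stood at 371.5 CPM and *Klk8* at 140.1 CPM, against 197.2 and 57.2 CPM in SE-like cells. Without macrophage-like cells as well, over 16 levels, the *Mt1* list held none of these genes and began with *Sh3glb2* (0.912) and *Sepw1* (0.886). For *Mt2*, *Fermt1* (0.947), *Wnt6* (0.940) and *Krt7* (0.939) stayed, and *Slc2a3* and *Cdh1* did not.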

How the data were processed

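Cells of the ocular area of 1 WT and 1 *Mab21l1*-null embryo (26 somites) were sequenced with the Chromium 3′ kit. The deposited values are whole-number UMI counts, which the authors made with Cell Ranger on mm10 (GRCm38) per their processing notes and aggregated over libraries, a step that may thin the deeper library. Both libraries, with 43636657 and 53148253 UMIs, were used as deposited.

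Cells of 1500 to 8000 genes were kept if mitochondrial UMIs made up no more than 5%. The study's methods write this limit as 0.05%. It was read as a fraction of 0.05 because that gives the cell numbers stated there. The median depth of the cells kept was 21037 UMIs (WT) and 18135 UMIs (KO). Classes were gated on summed markers, in place of a share of markers detected, with levels set after the data were seen. For the gates, 6 markers shared with another class or found as free RNA were dropped, and 1 marker of the gates is not reported here. Cells passing more than 1 gate were left out, except within the optic vesicle, pigment epithelium and forebrain gates. There, cells passing the optic vesicle gate and 1 of the others were kept under that other name. Those passing both the pigment epithelium and forebrain gates were left out. Doublets were treated in the same way, and no doublet caller was run. Levels are UMI sums per 1000000 UMIs.

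With 1 library per genotype no test was made. Genes with at least 100 UMIs in a class were counted past a 1.5-fold ratio. The ratio and interval code was run on simulated Poisson counts, the model the intervals assume. That run checks the code and does not cover the spread over cells of these data. The named genes are *Mt1*, *Mt2*, list genes with at least 100 UMIs in LP-like or SE-like cells, and the 5 genes most like each member among those with a mean of at least 20 CPM. The members, gate, lists and rules were chosen with earlier results of these data known. A first set of 12 alternatives changed gates, filters, scaling, depth, the LP-like line, the clustering and the pseudocount, and 3 were added after the data were seen. Gene models are from GENCODE vM21 and promoter windows from RefSeq (GRCm38.p6), in which both members matched. Python 3.11.15, numpy 2.4.6, scipy 1.17.1, pandas 2.3.3, scikit-learn 1.9.0, igraph 0.11.9, leidenalg 0.10.2 and matplotlib 3.10.9 were used.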

Additional observations from a re-analysis of the deposited data

Results flagged for a closer look

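The KO over WT ratio of each gene had a counting interval under 1 in some classes and above 1 in others. With 1 library per genotype, the differences between classes were not tested. The genes were picked on low *Mt1* in KO ectoderm, so the ectoderm values are a description and support nothing. For *Mt1* it was 0.369 for LP-like cells and 0.543 for SE-like cells, against 1.41 in pigment epithelium-like and 1.27 in mesenchyme-like cells. For *Mt2* it was 0.468 in LP-like, 0.460 in SE-like and 0.284 in macrophage-like cells. It was 2.39 in optic vesicle-like, 2.26 in pigment epithelium-like, 1.65 in mesenchyme-like and 1.05 in erythrocyte-like cells. The counting intervals leave out the spread over cells. After thinning to 10000 UMIs, the variance of *Mt1* was 5.27 and 1.69 times its mean in WT and KO LP-like cells. In SE-like cells it was 5.003 and 5.18 times. For *Mt2* in erythrocyte-like cells it was 4.84 and 7.65 times, so the 1.05 is not read as a difference. Intervals that covered this spread would be wider.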

How the results depend on the processing

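No paired analysis was possible because each genotype has 1 library, and for the same reason no replicate could be left out. Over 15 alternatives to the ratios of KO to WT, *Mt1* ranged from 0.259 to 0.622 in LP-like and from 0.365 to 0.629 in SE-like cells, and *Mt2* from 0.376 to 0.719 and from 0.359 to 0.551. These reuse the libraries on which the genes were picked and are no support for a low ratio. Of 277 values, 260 stayed within the counting interval of the ratio reported, 14 moved out of it, and 3 crossed 1 where the reported interval had been clear of 1. Alternatives that only divide LP-like from SE-like cells in another way return every other class unchanged. Those values could not move and are among the 260, so this count is no measure of stability. Ratios whose interval held 1 also crossed it, *Mt1* in neural crest-like cells in 5 of 15 alternatives. With the gate at 8, *Mt1* in SE-like cells was at 0.393 and *Mt2* in pigment epithelium-like cells, with 2 and 20 UMIs, at 7.14. With at most 3% mitochondrial UMIs, *Mt1* was at 0.365 in SE-like (13 WT and 16 KO cells) and 0.605 in neural crest-like cells (1 WT and 4 KO cells), and *Mt2* at 0.625 in endothelium-like cells (1 UMI each). With the LP-like line halved, *Mt1* in LP-like cells was at 0.611. With a pseudocount of 1 UMI per 10000, which draws low levels towards 1 by construction, *Mt1* in LP-like cells was at 0.622 and *Mt2* at 1.05, 1.03 and 1.02 in optic vesicle-like, pigment epithelium-like and mesenchyme-like cells. In erythrocyte-like cells *Mt1* was at 0.925 as a mean over cells, 0.914 after thinning and 0.911 without the 5% of cells with most UMIs, where *Mt2* crossed to 0.959. In the alternatives added after the data were seen, *Mt2* in macrophage-like cells crossed to 1.11 without the highest cell of each library. With RNA at the erythrocyte-like ratio to *Hbb-y* subtracted, *Mt1* in mesenchyme-like cells crossed to 0.854. *Mt2* in optic vesicle-like cells was then at 4.79, from only 0.573 CPM left in WT and 2.74 CPM left in KO. That subtraction gave no value for erythrocyte-like cells or for *Mt2* in several low classes, and the gate at 8 none for forebrain-like cells. Where not given, the cause was not tested. Precision is limited by few UMIs, 18 to 99 per gene and library in LP-like cells.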
